A study of Homo sapiens with 36 samples.

Results

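HEK293 is an established human line from embryonic kidney, and a pair of its clones, numbered 4 and 5 in the labels, was compared for how each responded to HyT36. HyT36 is a hydrophobic ligand that binds covalently to HaloTag, an engineered bacterial dehalogenase used as a tag, and per the series' design text a tagged protein misfolds when it is bound. The groups were clone 4 with DMSO, clone 4 with 25 µM HyT36, clone 5 with DMSO and clone 5 with 25 µM HyT36, each with 3 bulk RNA libraries, so 12 of the 36 samples of the series were used. Every cell came from a population that had received a guide library and a HaloTag donor, and no untagged cells are among the 12 libraries. Each clone is 1 clone, so a difference between clones 4 and 5 is a difference between those 2 clones. The sources used here give neither the tagged protein of either clone nor whether the ligand was present for 2 or 12 h. Reads of a guide named for HDAC2 were found in clone 4 and of a guide named for IGF1R in clone 5. The quantity tested for each gene was the log2 change with HyT36 in clone 5 minus the log2 change with HyT36 in clone 4, called here the difference of response. A negative value means a lower response in clone 5.

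A cell that holds misfolded protein in the endoplasmic reticulum (ER) senses it through IRE1, PERK and ATF6. IRE1 splices the mRNA of XBP1, a transcription factor that is also a transcriptional target of this response. PERK is a kinase of the integrated stress response, which slows translation and raises ATF4, the factor behind CHAC1, DDIT4, ASNS and DDIT3. Misfolded protein in the cytosol and nucleus acts instead through HSF1, which drives HSP70 and HSP40 chaperones such as HSPA1A and DNAJB1.

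Each library held 22853946 to 28635511 gene counts, and HEK293 markers were present in every library at a sum of 712 to 888 CPM (counts scaled by edgeR to a common library size). Markers of other cell types varied across the libraries. For epithelial line markers, such as keratins, the sum was high (140.3 to 233 CPM) in the 3 libraries of clone 5 with DMSO, in replicate 1 of clone 4 with DMSO and in replicates 2 and 3 of clone 4 with HyT36. It was low (43.6 to 53.5 CPM) in the 6 libraries that remain. Members of the list were unlike, as shown by KRT19 and SPINT1, picked after their values were seen. KRT19 had 32.2 to 69.9 CPM in the libraries with a high sum and 0.0419 to 0.235 CPM in the others. SPINT1 had 15.98 to 21.3 CPM and 12.3 to 19.3 CPM. Genes of plasma proteins made by liver, a list of 40 written after their values were seen, also varied. They summed to 1106, 283 and 267 CPM in clone 4 with DMSO, to 214, 232 and 225 CPM in clone 4 with HyT36, to 285, 294 and 87.1 CPM in clone 5 with DMSO, and to 423, 396 and 371 CPM in clone 5 with HyT36. ALB, the serum albumin gene, ran from 9.37 CPM in clone 5 DMSO replicate 3 to 124 CPM in clone 4 DMSO replicate 1. Of the 26 tested epithelial markers 25 had a negative difference of response (median -3.46), and all 40 liver genes had a positive one (median 2.12). None of either list passed the test of the difference in the fit over the 4 groups alone. With a numeric term for the epithelial sum, 16 liver genes and 2 epithelial markers passed. Without clone 4 DMSO replicate 1, 2 liver genes and 5 epithelial markers did. The liver list leaves out AGT and C1R, described below, which passed. Fibroblast markers summed to 55.8 to 69.1 CPM and blood cell markers to 1.53 to 5.04 CPM. Of the fibroblast sum PDGFRA alone gave 49.3 to 60.8 CPM and COL1A1 4.69 to 6.73 CPM. No other fibroblast marker was above the 2.00 CPM of THY1 in clone 4 DMSO replicate 2. The part of these transcripts in the results was not tested other than by the fits given beside them. Libraries high in epithelial markers include none of clone 5 with HyT36, and those low in them none of clone 5 with DMSO, so no difference of response can be had on either side of that split. Within clone 5 the split is the same as the treatment. Fits with a term for these markers therefore rest mainly on clone 4 to tell that term from a response.

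**Figure D1:**
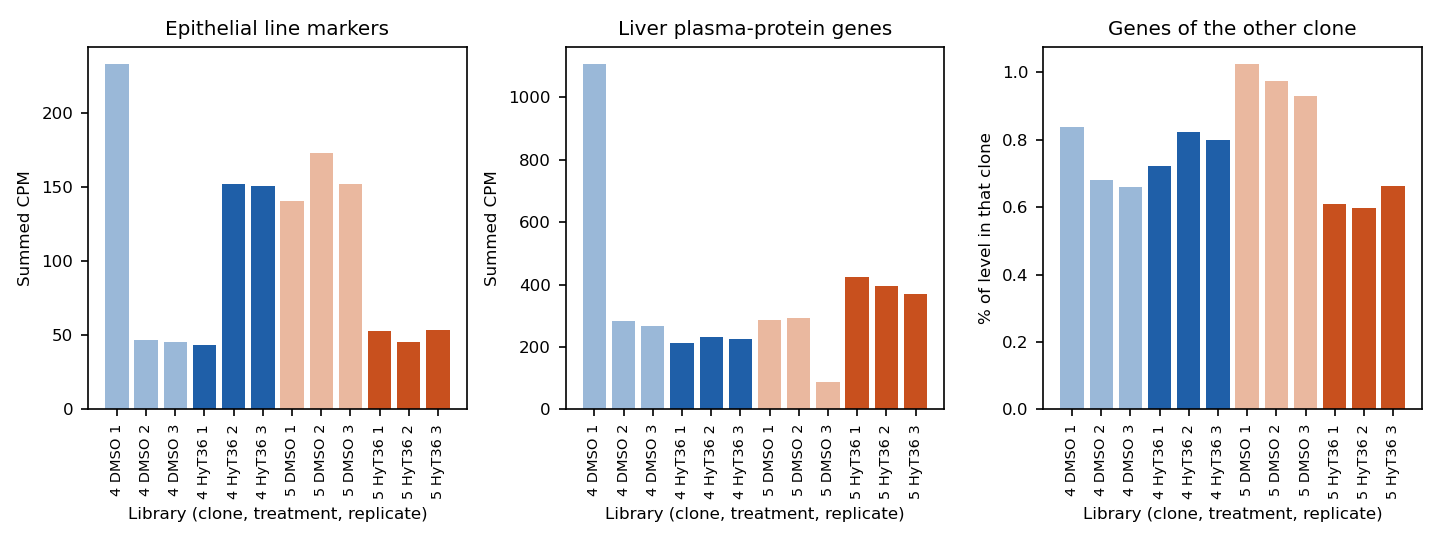
Markers of other cell types, and genes of the other clone, in each of the 12 libraries: the summed CPM of epithelial line markers (left), the summed CPM of 40 liver plasma-protein genes (middle) and the level of genes of the other clone, as a percent of their mean level in that clone (right). Bars are single libraries and start at 0; clone 4 DMSO replicate 1 is highest in the first and second plots, and the 3 clone 5 libraries with DMSO are highest in the third, at 0.930 to 1.02%.

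Promoters are shown for CHAC1, HERPUD1 and XBP1, stress genes whose responses differed between the clones and whose upstream sequence holds a match to a stress element. Each is the 250 bases before the RefSeq start of the gene (GRCh38.p14), 5′ to 3′ on the gene's strand, with the match in capitals. For CHAC1 and HERPUD1 the capitals mark a match on the opposite strand to TGATGNAAN, a form of the element that ATF4 and C/EBP factors bind. For XBP1 they mark the ER stress element (CCAAT, 9 unspecified bases, then CCACG). The regions are chr15:40953221-40953470 (plus strand), chr16:56931892-56932141 (plus strand) and chr22:28800570-28800819 (minus strand).
CHAC1: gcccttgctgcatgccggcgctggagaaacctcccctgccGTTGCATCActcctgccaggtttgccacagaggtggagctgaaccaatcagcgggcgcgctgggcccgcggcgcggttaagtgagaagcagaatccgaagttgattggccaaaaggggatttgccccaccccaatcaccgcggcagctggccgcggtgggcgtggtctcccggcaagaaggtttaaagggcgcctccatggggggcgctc
HERPUD1: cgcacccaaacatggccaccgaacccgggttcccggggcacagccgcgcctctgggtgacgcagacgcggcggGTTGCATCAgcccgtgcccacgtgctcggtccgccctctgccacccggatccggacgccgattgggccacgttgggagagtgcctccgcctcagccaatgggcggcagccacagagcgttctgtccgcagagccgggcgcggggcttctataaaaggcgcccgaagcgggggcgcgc
XBP1: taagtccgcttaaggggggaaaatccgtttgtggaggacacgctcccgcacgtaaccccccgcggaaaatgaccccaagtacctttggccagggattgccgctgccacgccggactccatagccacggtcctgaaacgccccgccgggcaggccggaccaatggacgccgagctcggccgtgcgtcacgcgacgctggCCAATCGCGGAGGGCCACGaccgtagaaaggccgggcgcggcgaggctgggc
The matches begin 210, 177 and 52 bases before the start. CHAC1 and HERPUD1 carry the same 9 letters, GTTGCATCA. Searched on both strands, the ATF4 element was present in 3.18% of 27305 RefSeq promoters of this length, in 1.43% of the 10941 matched to tested genes, and in 3 of the 37 matched to genes past the threshold, the third being AGT. The ER stress element was present in 0.0806% of all promoters, 0.128% of those of tested genes and 1 of the 37. Only the exact letters given were searched. Other forms of the ER stress element, in HERPUD1 or any other gene, were not counted. Of the other elements, 0 of the 37 held TGACGTGG (an XBP1 and ATF6 element, 0.667% of all and 0.74% of tested), TGACGTCA (the cyclic AMP element, 1.77% and 2.8%) or the heat shock element (0.439% and 0.292%). These are matches of letters and no evidence of binding. TGACGTGG and TGACGTCA share their first 6 letters.

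Of 14892 genes tested, 45 (0.302%) differed in their response between the clones by edgeR's quasi-likelihood F-test (adjusted p under 0.05, Benjamini-Hochberg). The response was higher in clone 5 for 19 (0.128%) and lower for 26 (0.175%), and 1192 genes had an unadjusted p under 0.05. In clone 4 HyT36 raised 329 genes (2.21%) and lowered 501 (3.36%), and in clone 5 it raised 499 (3.35%) and lowered 720 (4.83%). Of these, 417 were called in both clones, which is 50.2% of the clone 4 calls and 34.2% of the clone 5 calls, and 413 of the 417 moved the same way (125 up and 288 down). Among the 45, 13 were called in both clones, 14 in clone 4 only and 18 in clone 5 only. The test of the difference passed for 14 of the 413 genes called in clone 4 only and for 18 of the 802 called in clone 5 only.

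The median standard error of a difference was 0.60 log2 units for genes under a mean log2 CPM of 1 and 0.05 for genes over 7, which sets the size of difference that could be called at each level. Over the 11675 genes whose mean log2 CPM was 1 or more, the responses of the clones had a Pearson r of 0.12 and a Spearman rho of 0.44. Over all 14892 they were -0.06 and 0.25. That is a description across genes, which share libraries and are not independent replicates. Each difference is relative to all genes, whose median difference was -0.01. In bulk libraries, fewer cells of a kind and less RNA per cell cannot be told apart.

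The count of calls moved with the treatment of the epithelial and liver transcripts. Without clone 4 DMSO replicate 1, the library highest in both kinds, 140 genes passed, 39 higher and 101 lower, and all 45 were among them. Leaving out any other library gave 25 to 51. A term for the epithelial sum raised the count to 273 and a term for the liver sum gave 44, of which 24 were among the 45. With both terms in the same fit 5 genes passed, and of the 45 only XBP1 did. In that fit, which reuses the libraries that the 45 were called from, all 45 kept their sign. The standard errors were 1.92 times as large at the median. The 5 were XBP1, DDIT4, TXNIP, KRT19 and DCHS1, of which DCHS1 and the keratin gene KRT19 are named after their values were seen. KRT19 is itself part of the epithelial sum, and its difference with both terms was -3.69 (edgeR adjusted p = 0.0414).

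By fit, these calls were lost with the numeric epithelial term: DEDD2, GRPEL2, PIM1, PPP2R2B, SH2D4A, STC2 and VPS13D. The 2-level term lost the same 7 and also CCN1, GAB2, HUWE1, MMP15, NUAK1, RAB27B, TENT5C and VEGFA. DESeq2 lost AGT, MMP15, NELL1, NSG1, PPP2R2B, RAB27B, RBM48, SEMA3D and TMEM145. With limma-voom CHAC1, MMP15, NELL1, NIBAN1, NSG1, OR2I1P, PPP2R2B, RAB27B, RBM48, SEMA3D and SH2D4A did not pass.

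**Figure D2:**
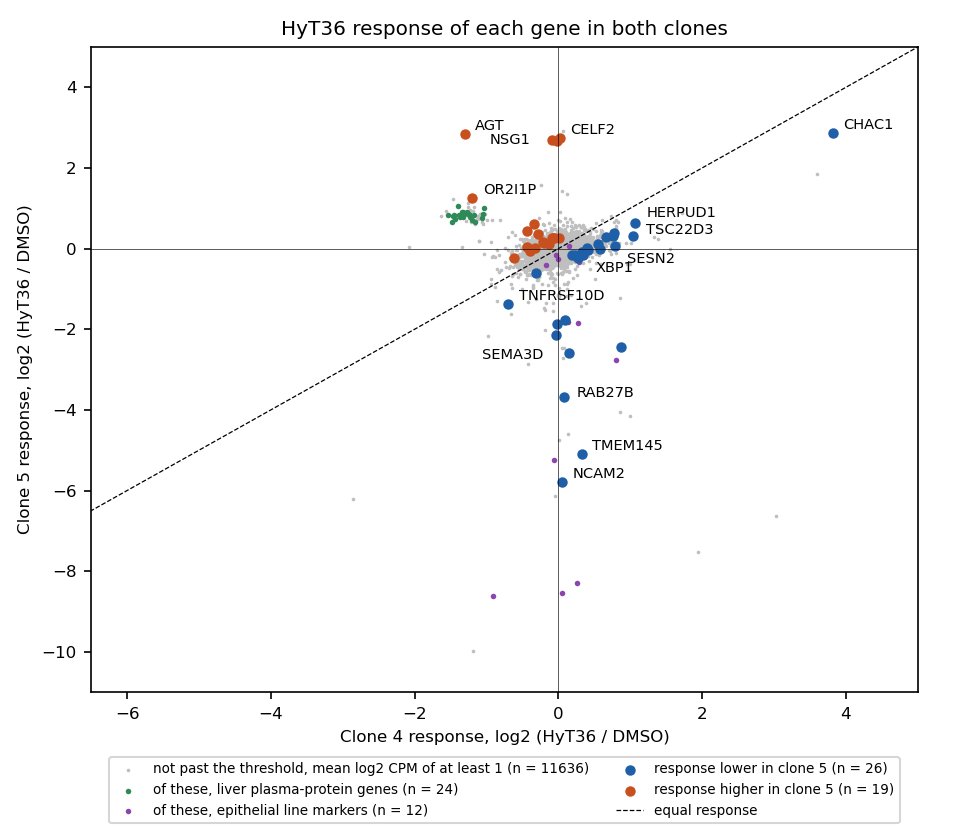
HyT36 response of each gene in clone 4 (horizontal) and clone 5 (vertical), as log2 of HyT36 over DMSO. Grey points are the 11636 genes at a mean log2 CPM of 1 or more that did not pass the test of the difference, with liver plasma-protein genes in green (24) and epithelial line markers in purple (12); large points are the 26 genes with a lower and the 19 with a higher response in clone 5, and the dashed line marks equal responses. CHAC1 lies far up in both clones but below the line, and the liver genes form a group that is down in clone 4 and up in clone 5.

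Of the genes of the ER stress and integrated stress responses, XBP1, HERPUD1, CHAC1, STC2, SESN2 and VEGFA had a lower response to HyT36 in clone 5 and none a higher one. All 6 rose in clone 4, and HERPUD1, CHAC1 and STC2 rose in clone 5 as well. XBP1 (chromosome 22, 28794560 to 28800569) had the smallest p of all genes. Its level in clone 4 was 133, 134 and 133 CPM with DMSO and 197, 198 and 203 CPM with HyT36. In clone 5 it was 136, 127 and 129.8 CPM with DMSO and 132, 127 and 134 CPM with HyT36. Every clone 4 library with HyT36 lay above all 9 others, and the clone 5 groups overlapped. XBP1 rose by 0.58 ± 0.04 on the log2 scale in clone 4 (SE; edgeR adjusted p = 2.1e-14) and stood at -0.00 ± 0.04 in clone 5. The difference of response was -0.58 ± 0.05 (edgeR adjusted p = 6.9e-09). The clones did not differ detectably in XBP1 with DMSO (-0.02 ± 0.04, edgeR adjusted p = 0.62). With the epithelial and liver terms together the difference was -0.58 ± 0.11 (edgeR adjusted p = 0.031). Gene counts do not show splicing of XBP1 by IRE1.

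HERPUD1, an ER membrane protein of ER-associated degradation (chromosome 16, 56932142 to 56944864), had 44.1, 41.8 and 42.7 CPM in clone 4 with DMSO and 93.5, 85.5 and 89 CPM with HyT36. The clone 5 libraries had 39.5, 40.5 and 43.1 CPM with DMSO and 67.2, 60.4 and 62.4 CPM with HyT36. Both clones started at like levels and the HyT36 groups did not overlap with DMSO or with each other. The rise was 1.06 ± 0.05 in clone 4 and 0.63 ± 0.05 in clone 5, and the difference -0.43 ± 0.07 (SE; edgeR adjusted p = 0.0014). HERPUD1 gained 46.5 CPM in clone 4 and 22.3 CPM in clone 5.

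CHAC1, an ATF4 target that breaks down glutathione (chromosome 15, 40953471 to 40956512), started lower in clone 5. It had 5.16, 4.55 and 4.12 CPM in clone 4 with DMSO against 1.08, 1.25 and 1.24 CPM in clone 5 (-1.94 ± 0.14 log2, edgeR adjusted p = 6.1e-15). With HyT36 it had 67, 65.5 and 63 CPM in clone 4 and 9.96, 7.82 and 8.32 CPM in clone 5. No libraries overlapped between treatments in either clone. The rise was 3.82 ± 0.09 in clone 4 and 2.86 ± 0.13 in clone 5, with a difference of -0.96 ± 0.18 (SE; edgeR adjusted p = 0.0060). By limma-voom the difference did not pass (adjusted p = 0.0735).

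STC2, a secreted glycoprotein induced by ATF4, rose from 66.6, 60.9 and 55.9 to 101, 108 and 103 CPM in clone 4 and from 35.2, 40.7 and 38.4 to 49.2, 48.1 and 52.2 CPM in clone 5. The difference was -0.38 ± 0.08 (SE; edgeR adjusted p = 0.021), and it was lost with either epithelial term (-0.25 ± 0.09, adjusted p = 0.159, with the numeric one) and without any of 8 single libraries (edgeR adjusted p up to 0.112). SESN2, an inhibitor of mTORC1 that ATF4 and p53 both induce, had 34.3, 45.2 and 35.2 CPM in clone 4 with DMSO and 67.2, 65.8 and 65.1 CPM with HyT36. In clone 5 its groups overlapped, at 42.6, 50.9 and 45.4 CPM with DMSO and 49.4, 49.6 and 46.6 CPM with HyT36. The difference of -0.72 ± 0.13 (edgeR adjusted p = 0.044) was also lost without any of 8 single libraries (adjusted p up to 0.186). VEGFA, the angiogenic growth factor, rose in clone 4 (0.55 ± 0.07) and stood at 0.11 ± 0.07 in clone 5, a difference of -0.44 ± 0.10 (edgeR adjusted p = 0.021). Without clone 4 DMSO replicate 3, clone 4 HyT36 replicate 2, clone 5 DMSO replicate 2 or clone 5 HyT36 replicate 1 it did not pass (adjusted p up to 0.114), nor with the 2-level epithelial term (0.101) or the liver term (0.0687).

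**Figure D3:**
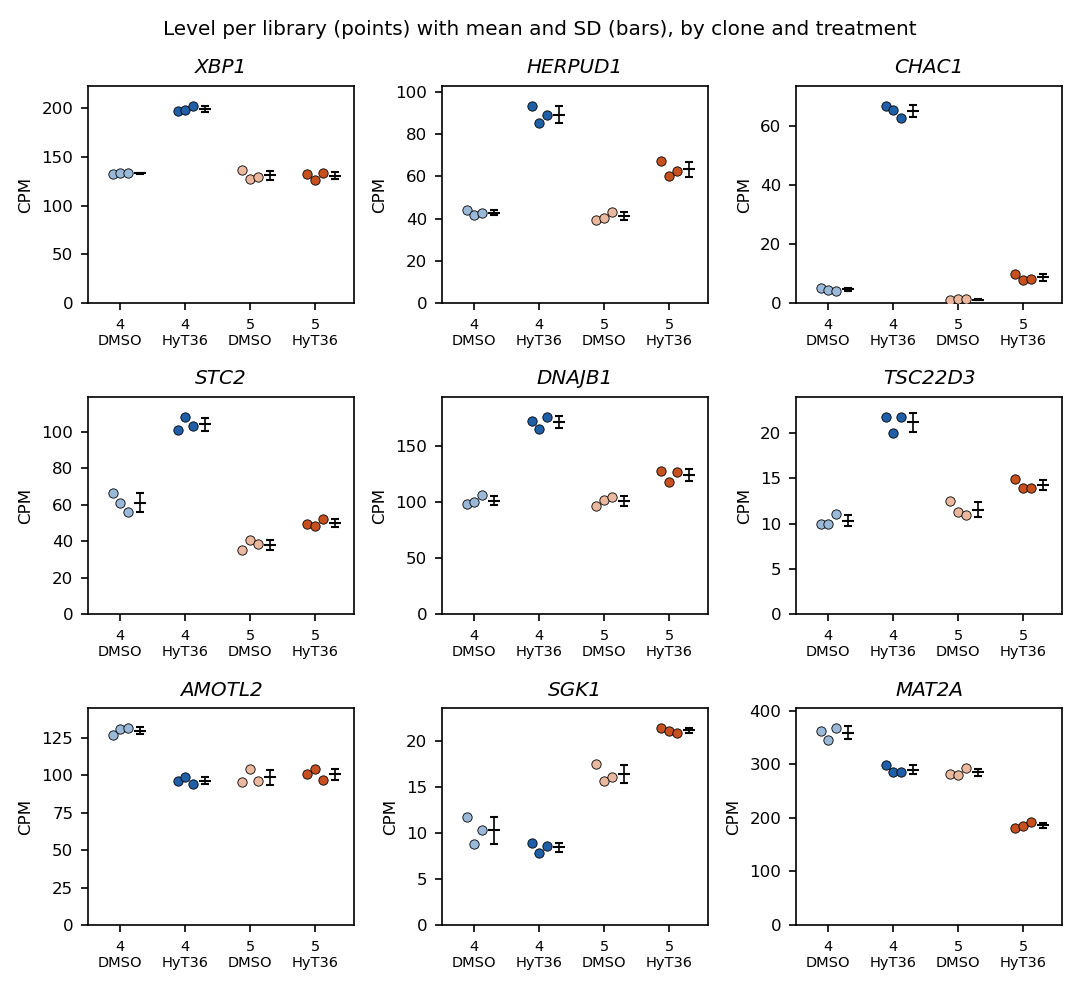
Level of 9 genes in every library, in CPM, by clone and treatment (points), with the mean and SD of the 3 libraries of a group (bars). XBP1 sits at 197 to 203 CPM in clone 4 with HyT36 and at 127 to 136 CPM in all other groups, while AMOTL2 is highest in clone 4 with DMSO and SGK1 in clone 5 with HyT36.

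Of 50 PERK and ATF4 targets tested, 4 (CHAC1, SESN2, STC2 and VEGFA) had a lower and 0 a higher response in clone 5, where 0.175% of all genes had a lower and 0.128% a higher one. A negative difference, passing or not, was found for 39 of the 50 and for 7816 of all 14892 genes (52.5%). The median was -0.07, against -0.01 over all genes, and it was negative in all 25 fits. In clone 4, 24 rose and 1 fell; in clone 5, 14 rose and 1 fell, and all 14 were among the 24. Of all genes 2.21% rose in clone 4 and 3.35% in clone 5. These counts do not show that the list differs between the clones.

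Other members had large differences that did not pass. DDIT4, an inhibitor of mTORC1, rose from 6.86, 4.47 and 3.25 to 55, 59.2 and 61.2 CPM in clone 4 and from 5.83, 4.56 and 4.37 to 18.4, 17.2 and 17.7 CPM in clone 5. All DMSO libraries lay below 7 CPM, and clone 4 with HyT36 lay above clone 5 with HyT36 in every library. Its difference of -1.73 ± 0.28 (95% interval -2.37 to -1.09) had an edgeR adjusted p of 0.054. It passed with DESeq2 (adjusted p = 6.6e-05), limma-voom (3.5e-04), every fit with an epithelial or liver term (1.3e-11 to 0.0024) and without clone 4 DMSO replicate 1 or 3 (3.1e-16 and 3.4e-05). ASNS, the asparagine synthetase gene, had a difference of -1.29 ± 0.40 (95% interval -2.10 to -0.47, edgeR adjusted p = 0.25). DDIT3, the stress factor CHOP, had -0.83 ± 0.33 (interval -1.49 to -0.17, adjusted p = 0.45). CEBPB, a factor that pairs with ATF4, had -0.83 ± 0.35 (interval -1.64 to -0.02, adjusted p = 0.61). ATF4 itself rose alike as far as could be measured, by 0.17 ± 0.05 in clone 4 and 0.17 ± 0.05 in clone 5, and the interval of the difference was -0.15 to 0.14. For ATF3 the interval was -0.33 to 0.12. TRIB3, a pseudokinase that curbs ATF4, passed in neither clone (0.13 ± 0.06 and -0.15 ± 0.06). CTH, the cystathionine gamma-lyase gene, named after its value was seen, had -0.37 ± 0.09 (edgeR adjusted p = 0.051). Of the 20 aminoacyl-tRNA synthetases 0 passed, with a median difference of 0.00.

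Of 46 ATF6 and XBP1 targets, 2 (XBP1 and HERPUD1) had a lower response in clone 5 and 0 a higher one, with a median difference of 0.00. Over all genes 0.175% had a lower and 0.128% a higher response. A negative difference, passing or not, was found for 22 of the 46, against 52.5% of all genes. Here 4 rose in clone 4, and in clone 5 7 rose and 1 fell. Of all genes 2.21% rose in clone 4, and 3.35% rose and 4.83% fell in clone 5. These counts do not show that the list differs between the clones. The main ER chaperone gene HSPA5 rose in both clones (0.19 ± 0.03 and 0.14 ± 0.03), with an interval of the difference of -0.15 to 0.05. DNAJB9, an ER co-chaperone gene, also rose in both (0.83 ± 0.08 and 0.67 ± 0.09; interval of the difference -0.40 to 0.08). SDF2L1, an ER chaperone partner, passed in neither clone, and its interval was -0.14 to 0.17.

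**Figure D4:**
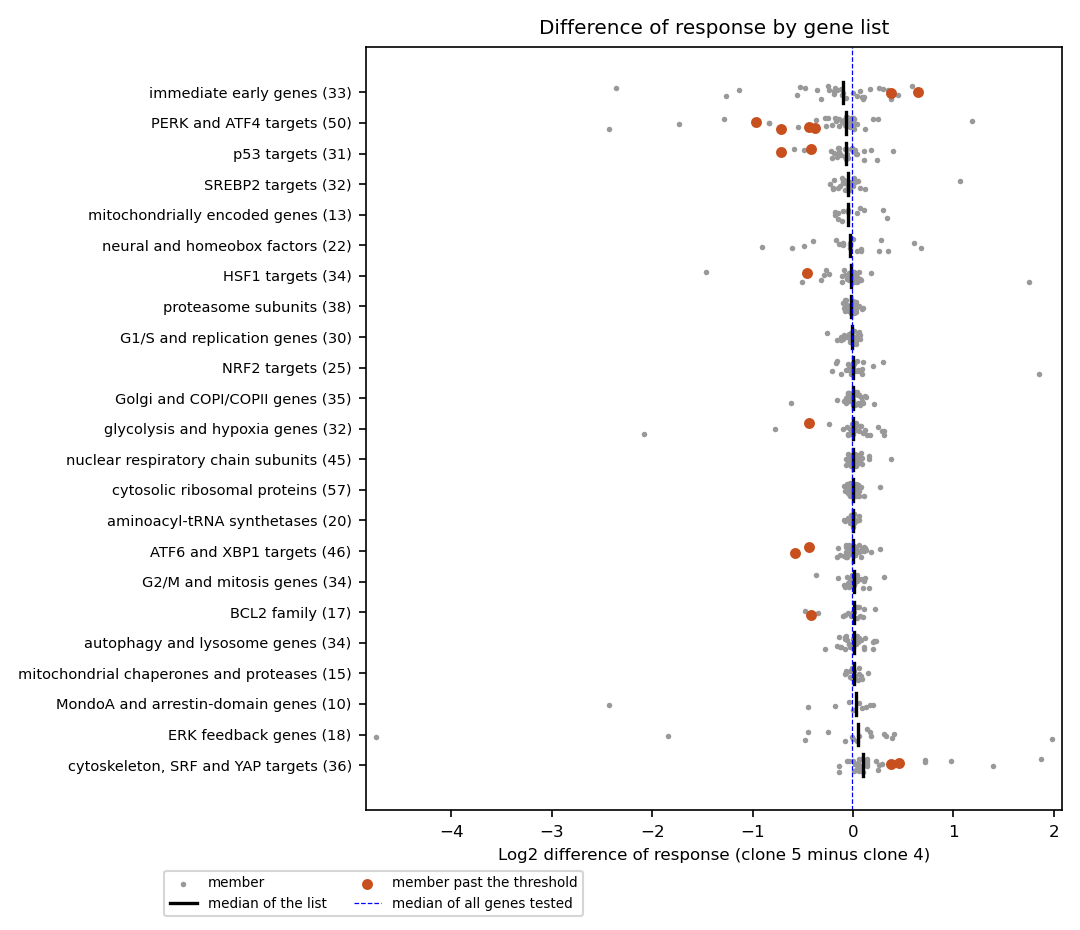
Difference of response (log2, clone 5 minus clone 4) of the tested members of 23 gene lists (points, with the number tested in brackets); large orange points passed the test, black bars are list medians and the dashed line is the median of all genes tested (-0.01). The PERK and ATF4 targets have 4 members past the threshold, all on the left, and the cytoskeleton, SRF and YAP targets have 2, both on the right; vertical scatter within a row has no meaning.

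In the cytosolic chaperone set 1 gene differed. DNAJB1, the inducible HSP40 partner of HSP70 (chromosome 19, 14514769 to 14560391), had 97.6 to 106 CPM in the 3 libraries of clone 4 with DMSO and 96.3, 101 and 105 CPM in clone 5 with DMSO. With HyT36 it had 172, 165 and 176 CPM in clone 4 and 128, 118 and 126 CPM in clone 5, so every clone 4 library lay above every clone 5 library. It rose by 0.76 ± 0.04 and 0.30 ± 0.04, a difference of -0.46 ± 0.06 (SE; edgeR adjusted p = 2.0e-05). Of 34 HSF1 targets this was the only 1 past the threshold, where 0.175% of all genes had a lower response. The median difference was -0.02, and 20 of the 34 were negative, against 52.5% of all genes. HSPA1A and HSPA1B, inducible HSP70 genes whose near-identical sequences may share reads, had differences of -0.27 ± 0.08 and -0.29 ± 0.08 (edgeR adjusted p = 0.17 and 0.20). HSPA1A passed without clone 4 DMSO replicate 1 (-0.31, adjusted p = 0.036). HSPA1A did not pass with the numeric or 2-level epithelial term, the liver term or both (edgeR adjusted p = 0.398, 0.628, 0.23 and 0.972). The constitutive HSP70 gene HSPA8 rose by 0.35 ± 0.03 in clone 4 and by 0.35 ± 0.03 in clone 5, and the interval of its difference was -0.10 to 0.10. The co-chaperone gene BAG3 rose in clone 4 (0.24 ± 0.07) and stood at -0.08 ± 0.07 in clone 5, and its difference did not pass (-0.32 ± 0.10, edgeR adjusted p = 0.24). The small heat shock protein gene HSPB1 passed in neither clone.

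An apoptosis gene and a ubiquitin ligase gene were among those raised in clone 4 only. PMAIP1 encodes NOXA, a BH3-only protein that p53 and ATF4 can induce, and had 35.8, 37 and 37.2 CPM in clone 4 with DMSO and 47.5, 46.1 and 44.5 CPM with HyT36. Clone 5 had 30.7, 30.7 and 30.9 CPM with DMSO and 26.5, 31.3 and 29 CPM with HyT36, and the groups overlapped. Its difference was -0.42 ± 0.09 (edgeR adjusted p = 0.013), lost without clone 4 HyT36 replicate 1 or clone 5 HyT36 replicate 1 (adjusted p = 0.052 and 0.074). SIAH2, a RING ubiquitin ligase, had a difference of -0.49 ± 0.10 (edgeR adjusted p = 0.019; up to 0.166 without any of 4 single libraries). RBM48, an RNA-binding protein of the minor spliceosome, had -0.51 ± 0.12 (adjusted p = 0.044; up to 0.183 without any of 9). Of 31 p53 targets 2, SESN2 and PMAIP1, had a lower response in clone 5 and 0 a higher one. Over all genes 0.175% had a lower and 0.128% a higher response. In clone 4, 2 of the 31 rose and 8 fell, in clone 5, 0 rose and 16 fell, and the median difference was -0.06. Of all genes 2.21% rose and 3.36% fell in clone 4, and 3.35% rose and 4.83% fell in clone 5. A negative difference, passing or not, was found for 23 of the 31, against 52.5% of all genes. These counts do not show that the list differs between the clones. CDKN1A, the p21 gene, fell by 0.88 in clone 4 and 0.96 in clone 5, with an interval of the difference of -0.57 to 0.41.

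Named after their values were seen, 4 further genes rose in clone 4 and had a lower response in clone 5. DEDD2, GRPEL2 and ING3 did not pass in clone 5, and TTC19 fell there. GRPEL2, a nucleotide exchange factor of mitochondrial HSP70, had a difference of -0.39 ± 0.09, and TTC19, an assembly factor of respiratory complex III, one of -0.35 ± 0.07. TTC19 was lost without clone 5 HyT36 replicate 1 (edgeR adjusted p = 0.0524), GRPEL2, DEDD2 and ING3 without any of 8, 9 and 4 single libraries (up to 0.119, 0.159 and 0.126). CCDC117, also named after its values were seen, rose in both clones, from 57, 55 and 57.8 to 92.8, 85.6 and 90.4 CPM in clone 4 and from 72.4, 68.8 and 67.5 to 80.4, 87.7 and 85.7 CPM in clone 5 (difference -0.38 ± 0.07, edgeR adjusted p = 0.0016). It passed without any single library and with each epithelial or liver term alone.

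A pair of genes known as glucocorticoid-responsive had differences of opposite sign. TSC22D3, also called GILZ (chromosome X, 107713221 to 107775988), had 9.94, 9.97 and 11 CPM in clone 4 with DMSO and 21.8, 19.99 and 21.8 CPM with HyT36. The values in clone 5 were 12.5, 11.3 and 11 CPM with DMSO and 14.9, 13.9 and 14 CPM with HyT36. It rose in both clones, by 1.04 ± 0.08 and 0.31 ± 0.08, and the difference was -0.73 ± 0.12 (SE; edgeR adjusted p = 5.9e-04). SGK1, a serum- and glucocorticoid-regulated kinase, had 11.8, 8.79 and 10.3 CPM in clone 4 with DMSO and 8.87, 7.85 and 8.55 CPM with HyT36, which overlapped. SGK1 rose in clone 5 from 17.5, 15.7 and 16.1 to 21.4, 21.1 and 20.9 CPM, without overlap. Its difference was 0.65 ± 0.13 (edgeR adjusted p = 0.0079) and did not pass with the liver term (0.47 ± 0.16, adjusted p = 0.351).

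Among genes that fell, the metabolic gene MAT2A and the receptor gene TNFRSF10D fell by more on the log2 scale in clone 5. MAT2A, named after its values were seen, encodes the enzyme that makes S-adenosylmethionine. It fell from 363, 346 and 369 to 299.5, 286 and 285 CPM in clone 4 and from 282, 281 and 293 to 182, 185 and 192 CPM in clone 5. No libraries overlapped between treatments within a clone, and the difference was -0.31 ± 0.05 (SE; edgeR adjusted p = 0.0016). TNFRSF10D, a decoy receptor for the death ligand TRAIL, fell from 45.5, 49.4 and 42.2 to 29, 28.9 and 26.7 CPM in clone 4. In clone 5, where it started lower (-1.37 ± 0.07 log2), it fell from 16.5, 17.9 and 18.4 to 6.74, 7.3 and 6.24 CPM. The difference was -0.69 ± 0.11 (edgeR adjusted p = 7.0e-04), while in absolute terms the fall was larger in clone 4 (-17.6 against -10.9 CPM).

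Of the YAP and SRF targets, AMOTL2 fell in clone 4 and did not pass in clone 5, and CCN1 fell in both clones and by less in clone 5. AMOTL2, an angiomotin that is both target and inhibitor of YAP (chromosome 3, 134355345 to 134375417), had 127, 131 and 132 CPM in clone 4 with DMSO and 96.2, 98.6 and 94.4 CPM with HyT36. In clone 5 it had 95.2, 104 and 96.3 CPM with DMSO and 101, 104 and 97.1 CPM with HyT36. Only clone 4 with DMSO stood apart, and the other 9 libraries lay between 94.4 and 104 CPM. The difference was 0.46 ± 0.06 (SE; edgeR adjusted p = 1.9e-05). CCN1, a secreted matricellular protein, was much higher in clone 4 at the start and fell from 158, 151 and 158 to 105, 97.1 and 102 CPM there. CCN1 fell in clone 5 from 22.3, 20.6 and 18.9 to 17.8, 17.9 and 16.6 CPM. Its difference of 0.38 ± 0.08 (edgeR adjusted p = 0.015) did not pass without clone 4 HyT36 replicate 2, clone 5 DMSO replicate 3 or clone 5 HyT36 replicate 1 or 2 (adjusted p up to 0.0643). Nor did it pass with the 2-level epithelial term (0.0566) or the liver term (0.285), and with the epithelial and liver terms together it was 0.08 ± 0.15.

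Of 36 tested cytoskeleton, SRF and YAP targets, AMOTL2 and CCN1 had a higher response in clone 5 and 0 a lower one. The median difference was 0.10, positive in all 25 fits, and 5 of 36 were negative, against 52.5% of all genes. In clone 4, 1 rose and 10 fell; in clone 5, 4 rose and 4 fell. Of all genes 2.21% rose and 3.36% fell in clone 4, and 3.35% rose and 4.83% fell in clone 5. These counts do not show that the list differs between the clones, and the 25 fits share the same libraries. SRF, the serum response factor gene, had 115, 119 and 119.8 CPM in clone 4 with DMSO and 91.5, 98.4 and 95.8 CPM with HyT36. Clone 5 had 109.6, 106 and 103 CPM with DMSO and 99, 103 and 101 CPM with HyT36. Its difference of 0.23 ± 0.06 did not pass (edgeR adjusted p = 0.071), but it did with DESeq2 (adjusted p = 0.026) and without clone 4 DMSO replicate 1 (0.019). SRF did not pass with the numeric or 2-level epithelial term, the liver term or both (edgeR adjusted p = 0.0828, 0.136, 0.342 and 0.946). Immediate early genes, a list that shares CCN1, had 2 of 33 with a higher response (CCN1 and SGK1), 0 with a lower one and a median difference of -0.10. Over all genes 0.128% had a higher and 0.175% a lower response. CCN2, another YAP target, had an interval of -0.01 to 0.52. KLF10, a TGF-beta-inducible factor, fell in both clones (-0.93 ± 0.08 and -0.76 ± 0.08), with an interval of -0.07 to 0.40.

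Further single genes had a higher response in clone 5. UBR4, a giant ubiquitin ligase, had 87, 92.6 and 85.9 CPM in clone 4 with DMSO and 80.1, 84.1 and 88.3 CPM with HyT36. The values in clone 5 were 79.6, 89 and 83.9 CPM with DMSO and 104, 99.3 and 99.5 CPM with HyT36. It rose only in clone 5 by the test, and the difference was 0.33 ± 0.07 (edgeR adjusted p = 0.0080). HUWE1, another giant ubiquitin ligase, VPS13D, a lipid transfer protein, and AHNAK, a scaffold protein, had 0.25 ± 0.06, 0.35 ± 0.08 and 0.24 ± 0.05. Those calls were lost without any of 8, 9 and 8 single libraries. VPS13D did not pass with either epithelial term (0.29 and 0.26), nor HUWE1 with the 2-level one (0.27, edgeR adjusted p = 0.0884). UBR4 did not pass with the liver term. GAB2, an adaptor of receptor tyrosine kinases, rose in clone 5 (0.28 ± 0.05; difference 0.34 ± 0.07). RREB1, a zinc finger factor downstream of RAS (0.36 ± 0.08, edgeR adjusted p = 0.0497), RRBP1, a ribosome receptor of the ER (0.33 ± 0.07), and PIM1, a survival kinase (0.38 ± 0.08), fell in clone 4 only. Without single libraries GAB2 was lost in 4 fits, RREB1 in 10, and RRBP1 and PIM1 in 7 each (adjusted p up to 0.0597, 0.194, 0.092 and 0.15). NUAK1, a kinase of the AMPK family, fell in clone 4 from 75.1, 76.4 and 78.1 to 66.2, 65.4 and 68.9 CPM and rose in clone 5 from 107, 112 and 115 to 119, 127 and 119.6 CPM. Neither pair of groups overlapped, and the difference was 0.33 ± 0.06 (edgeR adjusted p = 0.0045; 0.0512 with the 2-level epithelial term). AHNAK, HUWE1, NUAK1 and RRBP1 were named after their values were seen.

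**Figure D5:**
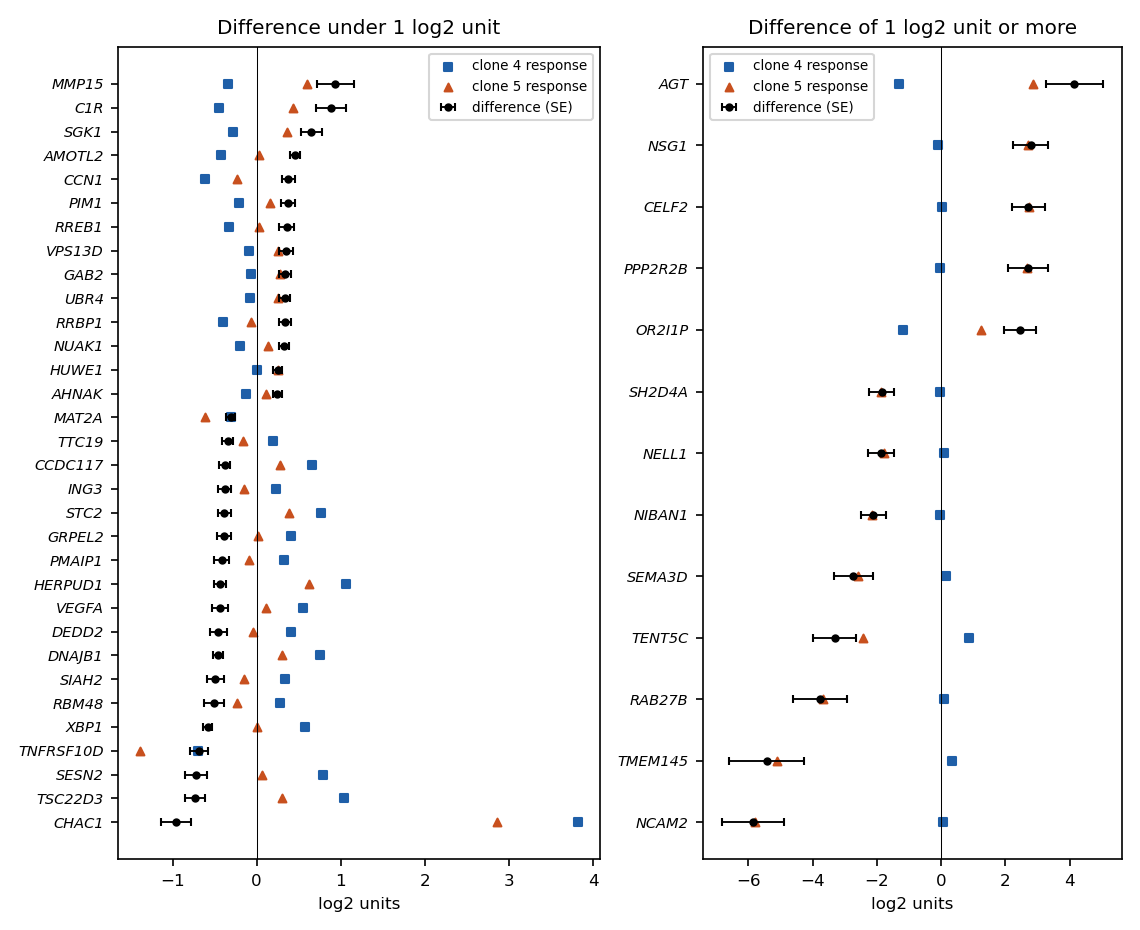
Response in clone 4 (blue squares), response in clone 5 (orange triangles) and their difference with its SE (black points) for the 45 genes past the threshold, in log2 units. The left plot holds the 32 genes with a difference under 1 log2 unit and the right plot, on a wider scale, the 13 genes with a larger one; most genes of the right plot have a clone 4 response near 0.

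MMP15, a membrane-type matrix metalloproteinase, had 13.4, 12.6 and 12.1 CPM in clone 4 with DMSO and 10.9, 9.99 and 9.16 CPM with HyT36. In clone 5, where it was scarce, it had 1.21, 1.25 and 0.838 CPM with DMSO and 1.67, 1.65 and 1.66 CPM with HyT36. The difference of 0.94 ± 0.22 (edgeR adjusted p = 0.040) did not pass with DESeq2 or limma-voom (adjusted p = 0.088 and 0.23), the 2-level epithelial term (0.0855), the liver term (0.434) or without any of 7 single libraries (up to 0.163). With the epithelial and liver terms together it was 0.23 ± 0.41.

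C1R, AGT and OR2I1P had a higher response in clone 5, and none is in the list of 40 liver genes. C1R, a complement protease that liver also makes, fell in clone 4 (10.7, 8.04 and 8.57 to 6.6, 6.59 and 6.89 CPM) and rose in clone 5 (4.21, 5.52 and 4.34 to 6.74, 6.12 and 6.2 CPM). Its difference was 0.88 ± 0.18 (edgeR adjusted p = 0.012; 0.0524 without clone 5 HyT36 replicate 1). AGT, the angiotensinogen gene, whose protein liver secretes, had 0.508, 0.51 and 0.375 CPM in clone 4 with DMSO and 0.18, 0.259 and 0.115 CPM with HyT36. In clone 5 it went from 4 to 28 reads in all, a ratio of 7.81 (95% counting interval 2.73 to 30.6), with a difference of 4.15 ± 0.89. OR2I1P, an olfactory receptor pseudogene, had 3.43, 1.65 and 0.916 CPM in clone 4 with DMSO and 0.866, 0.925 and 0.808 CPM with HyT36. Clone 5 libraries had 0.792, 0.662 and 0.437 CPM with DMSO and 1.63, 1.48 and 1.4 CPM with HyT36. Its difference was 2.45 ± 0.49 (edgeR adjusted p = 0.017). For OR2I1P, as for the liver sum, clone 4 DMSO replicate 1 was the highest library, clone 5 DMSO replicate 3 the lowest and clone 5 higher with HyT36 than with DMSO. With the liver term C1R, AGT and OR2I1P did not pass (0.56 ± 0.22, 4.10 ± 1.12 and 1.08 ± 0.50; edgeR adjusted p = 0.542, 0.121 and 0.696), though the AGT difference kept nearly its size and its standard error was larger. The part of liver transcripts in these differences was not tested otherwise. AGT did not pass with DESeq2, nor OR2I1P with limma-voom, and without single libraries each was lost in 6 of 12 fits (up to 0.0899 and 0.0623). AGT and OR2I1P were named after their values were seen.

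Of the 13 differences over 1 log2 unit, 12 belonged to genes with no more than 90 reads over the 3 libraries of either clone 5 group. Of the 45 genes, 34 passed the test between the clones with DMSO, as did 8259 of all 14892 genes (55.5%). NCAM2, a neural adhesion molecule, had 5.76, 4.39 and 4.7 CPM in clone 4 with DMSO and 5.27, 5.7 and 4.47 CPM with HyT36. In clone 5 it had 9, 5 and 7 reads with DMSO and 0 with HyT36, at least 6.28-fold lower against a floor of 3 reads over the group. TMEM145, a transmembrane protein gene, had 13 reads with DMSO and 0 with HyT36, which is at least 3.88-fold lower. RAB27B, a GTPase of vesicle exocytosis, went from 33 reads to 2 (ratio 14.8, 95% interval 3.78 to 127), and SEMA3D, a secreted semaphorin, from 22 to 3 (6.57, 1.98 to 34.3).

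NIBAN1, a stress-linked gene, went from 75 reads to 15 in clone 5 (ratio 4.48, 95% interval 2.55 to 8.40). SH2D4A, an SH2-domain adaptor, went from 90 to 22 reads (3.67, 2.28 to 6.14), NELL1, a secreted protein, from 39 to 10 (3.50, 1.71 to 7.85), and TENT5C, a poly(A) polymerase, from 62 to 10 (5.56, 2.83 to 12.2). None of these 8 genes passed in clone 4. In the other direction, NSG1, a neuronal endosomal protein, went from 4 reads with DMSO to 25 with HyT36 in clone 5 (6.97, 2.41 to 27.6). PPP2R2B, a phosphatase subunit, went from 3 to 19 (7.07, 2.08 to 37.3), and CELF2, an RNA-binding splicing factor, from 7 to 44 (7.01, 3.13 to 18.5). All 3 were at 2.45 CPM or more in every clone 4 library. The intervals cover counting error only. RAB27B, TENT5C, TMEM145 and CELF2 were named after their values were seen.

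Beside these values, libraries of each clone held low levels of genes particular to the other clone. Genes particular to clone 4 (22 genes at 5 CPM or more there and under 2% of that in clone 5) stood at 1.02, 0.973 and 0.930% of their clone 4 level in clone 5 with DMSO, and at 0.608, 0.599 and 0.664% with HyT36. Reads of the HDAC2 guide, which marks clone 4, numbered 16, 16 and 18 in clone 5 with DMSO and 9, 5 and 2 with HyT36. The 22 include SEMA3D, NELL1 and PPP2R2B. Of the 22, 16 were higher with DMSO and 6 with HyT36, PPP2R2B among the 6. In clone 4 libraries, 14 genes particular to clone 5 by the same limits stood at 0.661 to 0.838% of their clone 5 level. Over both treatments, the clone 5 level was 0.553% of the clone 4 level for NELL1, 0.690% for SEMA3D, 1.46% for PPP2R2B and 2.32% for NSG1. It was 2.69% for NCAM2, 4.46% for TMEM145, 5.71% for NIBAN1 and 12.5% for RAB27B. For CELF2, SH2D4A and TENT5C it was 12.6%, 17.5% and 88.9%. Whether such reads came from the other clone or from low expression in the clone itself was not tested, nor was their part in the differences. NCAM2 and CELF2 passed without each single library (edgeR adjusted p up to 0.0126 and 0.0438). NSG1 was lost without clone 5 HyT36 replicate 2 (0.167), TMEM145 without any of the 3 clone 5 libraries with HyT36 (up to 0.0728) and NIBAN1 without clone 5 HyT36 replicate 2 or 3 (up to 0.0623). SEMA3D was lost without these or clone 5 DMSO replicate 3 (up to 0.333), NELL1 without these or clone 5 DMSO replicate 1 (up to 0.537), and TENT5C without clone 4 HyT36 replicate 2 or clone 5 HyT36 replicate 1 or 3 (up to 0.0678). RAB27B, PPP2R2B and SH2D4A were lost without any of 8, 8 and 5 single libraries (up to 0.179, 0.292 and 0.116). With the numeric and 2-level epithelial terms PPP2R2B (adjusted p = 0.0502 and 0.0561) and SH2D4A (0.0501 and 0.165) did not pass, and with the 2-level term RAB27B and TENT5C (0.126 and 0.122). With DESeq2 SEMA3D, NELL1, NSG1, PPP2R2B, TMEM145 and RAB27B did not pass (adjusted p = 0.17, 0.061, 0.071, 0.21, 0.075 and 0.11). With limma-voom RAB27B, SEMA3D, NIBAN1, NELL1, SH2D4A, PPP2R2B and NSG1 did not pass.

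Further stress genes, and the genes that the guides name, did not pass the test of the difference. TXNIP, an inhibitor of glucose uptake, had 27.3, 11.8 and 12.4 CPM in clone 4 with DMSO and 6.78, 15.8 and 15.7 CPM with HyT36, and in clone 5 it fell from 28.2, 23.1 and 23.9 to 3.6, 3.43 and 3.31 CPM. The 6 libraries high in epithelial markers all lay above the other 6. The difference of -2.43 ± 0.62 (edgeR adjusted p = 0.28) moved with the fit. It was -1.42 ± 0.18 with the numeric epithelial term (adjusted p = 4.3e-06), -0.86 ± 0.19 with the 2-level one (0.0041), -3.20 ± 0.65 with the liver term (0.206) and -1.43 ± 0.29 with both (0.0414). GDF15, a stress cytokine, fell in clone 4 and had a difference of 1.19 ± 0.41 (interval 0.35 to 2.02, edgeR adjusted p = 0.34). It was 1.84 and 2.11 with the numeric and 2-level epithelial terms (adjusted p = 0.017 and 0.025), 0.61 ± 0.47 with the liver term (0.902) and 1.57 ± 0.77 with both (0.94). SREBP2 targets, the genes of sterol synthesis, had 0 of 32 past the threshold and a median difference of -0.05. INSIG1, their feedback regulator, rose by 0.60 ± 0.04 and 0.45 ± 0.04 (interval of the difference -0.26 to -0.03), and HMGCS1, a synthesis enzyme, had an interval of -0.09 to 0.12. The oxidative stress genes HMOX1 and SQSTM1 had intervals of -0.35 to 0.29 and -0.08 to 0.48. For the genes that guides name, the intervals were -0.13 to 0.09 for HDAC2, -0.13 to 0.18 for IGF1R and -0.44 to 0.23 for LRIG1. All intervals are 95% intervals of the log2 difference.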

How the data were processed

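Bulk RNA of 12 libraries was selected by poly(A) and prepared with the NEBNext Ultra II kit, per the labels' protocols. The authors deposited raw read counts per gene, not normalized. The submitters' processing notes name Cell Ranger 7 and GRCh38 with no role, and the bulk libraries' aligner, counter, annotation and strand setting are not stated in them or in the labels, so reads of overlapping, antisense or near-identical genes may be shared. Gene entries held 82.4 to 83.9% of all counts. The remaining entries (unmapped, multimapping, without a feature, ambiguous, guides) stayed out of library sizes and tests. Symbols and coordinates came from a RefSeq table (GRCh38.p14), which matched 36366 of the 36601 gene IDs.

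Genes were filtered with edgeR 4.0.16 (filterByExpr), scaled by TMM and fitted with a robust quasi-likelihood model over the 4 groups, in R 4.3.3. The F-test of the difference of responses was adjusted over all 14892 genes (Benjamini-Hochberg, threshold 0.05). Standard errors were taken from the log2 value and its F statistic, so they and the intervals are approximate. Fitted log2 values used a prior count of 0.125. Edge cases at 0 reads used a floor of 3 reads over a group. Alternatives were DESeq2 1.42.0, limma-voom 3.58.1, other scalings and filters, a replicate block, terms for epithelial and liver transcripts, a minimum fold and leaving out each library. The code was tested on simulated data. Libraries of a group differed by more than sampling noise (chi-square per degree of freedom 1.93 to 8.43). No label states whether the replicates of a group came from separate cultures. The p-values therefore measure the spread between these libraries, which may be technical.

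Genes were named by a rule: the 12 largest differences in each direction among called genes whose mean log2 CPM was 1 or more, up to 4 members of each described list past the threshold, and preset stress genes and guide targets. Others are marked as named after their values were seen. The comparison, members and lists were chosen with earlier results of these data known. The liver list, its terms and the 100 CPM limit of the 2-level epithelial term were added after seeing the data. Counting intervals are exact binomial intervals at 95%. The other 24 samples of the series were not analysed here.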

Additional observations from a re-analysis of the deposited data

Results flagged for a closer look

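The difference of response between the clones was itself tested for every gene, and 45 genes passed. Each is given with its log2 difference, clone 5 minus clone 4.

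Genes that rose in both clones, and by less in clone 5, were CHAC1 (-0.96), TSC22D3 (-0.73), DNAJB1 (-0.46), HERPUD1 (-0.43), STC2 (-0.38) and CCDC117 (-0.38). Genes that rose in clone 4 and did not pass in clone 5 were SESN2 (-0.72), XBP1 (-0.58), RBM48 (-0.51), SIAH2 (-0.49), DEDD2 (-0.46), VEGFA (-0.44), PMAIP1 (-0.42), GRPEL2 (-0.39) and ING3 (-0.38). TTC19 (-0.35) rose in clone 4 and fell in clone 5. Genes that fell in both clones, and by more in clone 5, were TNFRSF10D (-0.69) and MAT2A (-0.31). Genes that fell in clone 5 and did not pass in clone 4 were NCAM2 (-5.84), TMEM145 (-5.43), RAB27B (-3.76), TENT5C (-3.31), SEMA3D (-2.73), NIBAN1 (-2.11), NELL1 (-1.87) and SH2D4A (-1.85). NCAM2 and TMEM145 had 0 reads in clone 5 with HyT36, so the size of their log2 values depends on the prior count. Against the floor of 3 reads their falls in clone 5 were at least 6.28-fold and 3.88-fold.

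In the other direction, CCN1 (0.38) fell in both clones and by less in clone 5. Genes that fell in clone 4 and did not pass in clone 5 were AMOTL2 (0.46), PIM1 (0.38), RREB1 (0.36), RRBP1 (0.33) and AHNAK (0.24). Those that fell in clone 4 and rose in clone 5 were OR2I1P (2.45), C1R (0.88) and NUAK1 (0.33). Those that rose in clone 5 and did not pass in clone 4 were AGT (4.15), NSG1 (2.78), CELF2 (2.71), PPP2R2B (2.69), MMP15 (0.94), SGK1 (0.65), VPS13D (0.35), GAB2 (0.34), UBR4 (0.33) and HUWE1 (0.25).

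Of the 45 calls, 14 were kept in each of the 12 fits that left out 1 library: NCAM2, CHAC1, TSC22D3, TNFRSF10D, XBP1, DNAJB1, HERPUD1, CCDC117, MAT2A, NUAK1, UBR4, AMOTL2, SGK1 and CELF2.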

How the results depend on the processing

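Scaling by RLE, the stricter filter on low counts, DESeq2 and limma-voom gave 47, 50, 55 and 36 genes for the difference of response, against 45. Upper-quartile scaling gave 31 higher genes against 19, so 55.4% of calls were higher against 42.2%. With no filter on low counts 169 genes passed, 96 higher and 73 lower. The numeric epithelial term gave 273 (215 higher, 58 lower) and the 2-level term 244 (210 higher), with 776 calls in clone 5 against 1219. The liver term left 11 higher genes, 44 in all, and 538 calls in clone 4 against 830. Both terms together gave 5 (1 higher, 4 lower), with 330 calls in clone 4 and 156 in clone 5. Against a fold of 1.2, 7 genes passed (2 higher, 5 lower), 52 in clone 4 and 37 in clone 5. Without single libraries 25 to 140 genes passed, 9 to 39 higher and 16 to 101 lower, with 409 to 851 calls in clone 4 and 755 to 1618 in clone 5. All 45 genes kept their sign in all 4 fits with an epithelial or liver term. Those fits reuse the libraries that the 45 were called from, so the kept signs are no separate support. With both terms CCN1 was 0.08 ± 0.15 and MMP15 0.23 ± 0.41. The cause of these changes was not tested. The liver term lost 21 of the 45: AGT, C1R, CCN1, DEDD2, GAB2, ING3, MMP15, NELL1, OR2I1P, PIM1, PMAIP1, RBM48, RRBP1, RREB1, SESN2, SGK1, SIAH2, TMEM145, TTC19, UBR4 and VEGFA.

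With the replicate number as a block 43 genes passed, 18 higher and 25 lower, and 40 were among the 45, without AHNAK, RAB27B, RBM48, RREB1 and VPS13D. Same-numbered libraries correlated at -0.33 to 0.17 over 18 pairs, 3 of them over 0.1, so the numbers were not taken to pair the libraries. The planned epithelial limit of 20 CPM was not run because all 12 libraries lie above it.

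Several genes that did not pass changed sign in other fits. In the fit over the 4 groups alone HSPA1B stood at -0.29, SQSTM1 at 0.20 and DNAJB9 at -0.16, and the others named here were smaller in size. With the numeric epithelial term DNAJB9 was 0.0045, HMOX1 0.0021, ATF4 0.018, HSPA8 -0.047 and SDF2L1 -0.089. With the 2-level term DNAJB9 was 0.049, HSPB1 0.011, ATF4 0.019, HSPA8 -0.071, SDF2L1 -0.12 and HMGCS1 -0.0044. With the liver term ATF3 was 0.077, CDKN1A 0.0055, HDAC2 0.054, ATF4 0.016, HMGCS1 -5.3e-05, IGF1R -0.067 and SQSTM1 -0.034. With both, HSPA1B was 0.019, CDKN1A 0.15, HSPB1 0.19, HMOX1 0.11, ATF4 0.10, HSPA8 -0.056, SDF2L1 -0.042, HMGCS1 -0.055 and IGF1R -0.087. ATF4 was 0.0032 with DESeq2 and RLE, 0.0031 with no filter, and 0.015 with upper-quartile scaling. Without single libraries the ranges were -0.051 to 0.044 for ATF4, -0.20 to 0.076 for CDKN1A, -0.049 to 0.0090 for HDAC2, -0.011 to 0.042 for HMGCS1 and -0.16 to 0.066 for HMOX1. They were -0.024 to 0.031 for HSPA8, -0.13 to 0.0019 for HSPB1, -0.012 to 0.066 for IGF1R, -0.25 to 0.054 for LRIG1 and -0.041 to 0.083 for SDF2L1.

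The depth limits genes of few reads: the median standard error was 0.60 under a mean log2 CPM of 1.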

Other observations

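The guide reads followed the clones. Reads of the HDAC2 guide numbered 2318 to 3504 in the clone 4 libraries, and reads of the IGF1R guide 2623 to 3806 in clone 5 and 5 to 13 in clone 4. For a guide named for LRIG1, clone 5 libraries held 107 to 140 reads and clone 4 libraries 0. Genes particular to clone 5 (14 genes by the same limits) stood at 0.661 to 0.838% of their clone 5 level in clone 4 libraries.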
